A study of Cynoglossus semilaevis with 24 samples.

Results

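Most of the genes described here build the chromosome axis of meiosis or carry out meiotic recombination in Chinese tongue sole, Cynoglossus semilaevis, a flatfish. The set holds the entries of the deposited gene table with the symbol sycp1, sycp2, sycp3, hormad1, rad51c, dmc1, msh4, msh5 or spo11, or with a product name holding "synaptonemal complex protein", "HORMA domain-containing protein 1" or "meiotic recombination protein". That rule found 16 of 22773 entries, 9 by symbol and 7 by product name alone. Among the latter is leprel4, whose protein acts in mouse with collagen-modifying enzymes, and counts of the set include it. The libraries came from female gonad, male gonad, female brain, male brain, female pituitary, male pituitary, female liver and male liver, with 3 libraries each and 24 in all. Sex is the genetic sex in the labels, all fish were 2 years old, and no treatment or allele is named. Each library was made from tissue of 5 fish mixed before extraction, so the spread between libraries is a spread between pools and not between single fish. The labels do not say whether pools of different organs came from the same fish.

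In meiosis the paired copies of each replicated chromosome are folded along a protein axis, cut on purpose, repaired from each other and joined by crossovers before they part. The axis holds REC8 cohesin, SYCP2, SYCP3 and HORMAD1, and SYCP1 then zips the axes of the partners into the synaptonemal complex. SPO11 makes the cuts with helpers such as REC114, DMC1 and its helpers carry out strand exchange, and the MSH4 and MSH5 pair marks and stabilises future crossovers. In a testis with ongoing spermatogenesis cells enter meiosis continually, while the growing oocytes of a fish ovary have already recombined and rest in prophase.

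Expression is given as FPKM, fragments scaled by transcript length and by the mapped total of the library, which can be compared between genes. Differences between groups come from edgeR's quasi-likelihood test on the estimated counts with TMM scaling, fitted on every gene at 1 FPKM or more in at least 3 libraries of the fit. A gene is called at a Benjamini-Hochberg adjusted p under 0.05 over all genes tested. Log2 differences are female minus male, or gonad minus other organs. They rest on counts with TMM scaling, which FPKM do not carry, so they need not equal the ratio of FPKM means. Library totals were 10032337 to 15409531 estimated counts, and female gonad 1 was deeper at 25293744. Most marker lists followed the organ labels. The summed level of 30 oocyte genes was 22187 to 26453 FPKM in female gonads and 161 to 194 FPKM in male gonads, and that of 4 Sertoli and testis soma genes was 6.32 to 8.98 FPKM in female gonads and 93.3 to 114.9 FPKM in male gonads. The list of 4 granulosa and ovary soma genes did not follow them, with sums of 12.99 to 24.07 FPKM in female gonads and 22.74 to 24.23 FPKM in male gonads; of these genes foxl2 was higher in female gonads (log2 difference 3.92, SE 0.41), rspo1 was lower (-3.54, SE 0.50) and hsd17b1 and fst were not called. Male pituitary 3 stood apart from the other somatic libraries in the genes described here, and values that it moves by more than 0.5 on the log2 scale are also given without it. In bulk tissue, fewer cells of a type and less RNA per cell cannot be told apart.

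Most of these genes were far lower in female than in male gonads, and a pair of them, rad51c and LOC103377325, was far higher. Of the 16 genes, 15 passed the filter on low values and all 15 were called, 2 higher and 13 lower in female gonads. Across the genome 84.2% of the 16195 genes tested were called, 38.8% higher and 45.4% lower in female gonads, so the count says little. Most of the 15 passed the filter through the male or female gonads where they are high, and such genes had to differ. All 15 had groups that did not overlap in FPKM, as did 86.3% of all genes tested. The median log2 difference was -7.35 over the 15 genes, also with rec8 at its lower bound, and -0.24 over all genes tested. The filter largely sets the median of the 15. Among gonads, sycp1, sycp2, sycp3, hormad1, dmc1, msh4, rec8 and LOC103388278 reached 1 FPKM in males alone. The filter thus largely fixed their direction, and the p-values given below for such genes are no independent support for it. The median is the value of sycp2, which had 2 female counts and ran from -8.10 to -1.79 over the alternatives. Without scaling beyond the total count the median of all genes was -1.04 and 31.7% of the called genes were higher in females, against 46.1% with TMM scaling. All 15 calls kept their direction under both other scalings. The map of levels by library shows the pattern.

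**Figure D1:**
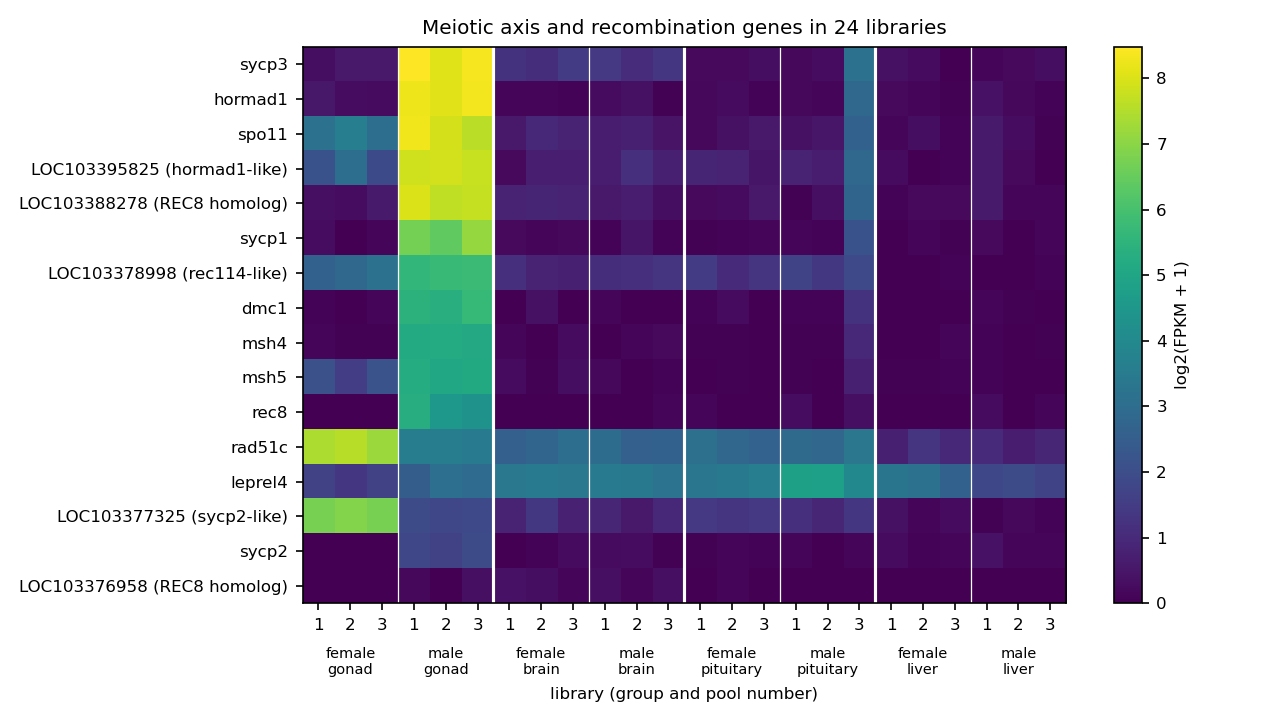
Level of the 16 genes in each of the 24 libraries as log2(FPKM + 1), with genes in the order of their mean in male gonads and libraries grouped by organ and sex. The 3 male gonads are bright for most genes, rad51c and LOC103377325 are brightest in the 3 female gonads, leprel4 is spread over all organs, and male pituitary 3 holds a faint copy of the male gonad column.

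In male gonads the most abundant transcript per length was sycp3 at 317 ± 47.0 FPKM (SD, n = 3), followed by hormad1 at 298 ± 22.2, spo11 at 250.3 ± 61.2, the hormad1-like gene LOC103395825 at 229.5 ± 9.29 and the REC8 homolog LOC103388278 at 225 ± 31.5 FPKM. Neighbours among these top genes overlapped in their pools, so their order is not settled. A step followed to sycp1 at 109 ± 28.3 FPKM, and its pools lay below all pools of the genes above. Below sycp1 came LOC103378998, dmc1, msh4, msh5 and rec8, with means between 26.5 and 51.1 FPKM. The lowest were rad51c at 10.8 ± 0.230, leprel4 at 6.37 ± 1.5, LOC103377325 at 2.68 ± 0.190, sycp2 at 2.50 ± 0.351 and LOC103376958 at 0.137 ± 0.140 FPKM. In female gonads the order was a different one. There rad51c led at 169 ± 20.05 FPKM and LOC103377325 followed at 109.9 ± 6.83 FPKM, with no overlap between their pools. The next gene, spo11, reached 8.95 ± 2.04 FPKM, and 9 of the 16 genes had means under 1 FPKM.

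**Figure D2:**
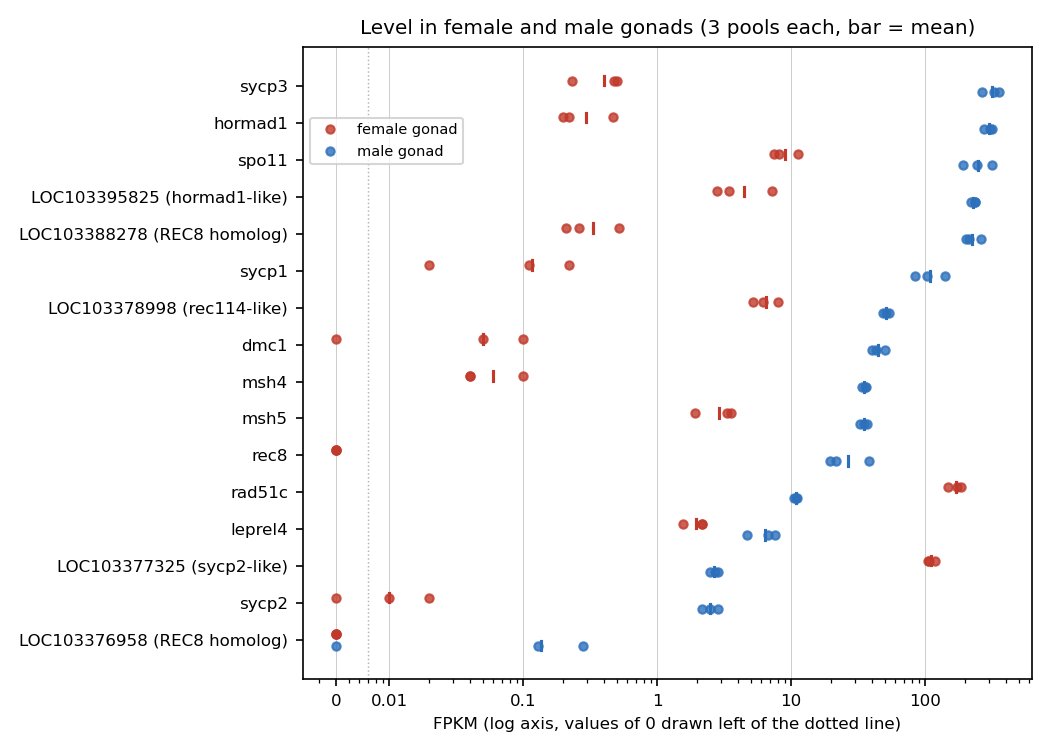
FPKM of each gene in the 3 female and 3 male gonad pools on a log axis, with the mean as a bar and values of 0 drawn left of the dotted line. Female pools of rad51c and LOC103377325 lie right of the male pools, and for all other genes except LOC103376958 they lie left of them without overlap.

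Among the axis proteins, SYCP3 forms the core filament on which sister chromatids are arranged. The sycp3 transcript had 0.23, 0.48 and 0.5 FPKM in the female gonads, against 356, 264 and 330 FPKM in the male gonads. All female pools were thus far under every male pool, and the log2 difference was -8.92 (SE 0.27, edgeR adjusted p = 5.51e-10). HORMAD1 binds unpaired axes and, in mouse, is removed as they pair. Its gene hormad1 had 0.47, 0.22 and 0.2 FPKM in female gonads, against 303, 274 and 318 FPKM in male gonads. The log2 difference of -9.02 (SE 0.28, edgeR adjusted p = 7.31e-10) was close to that of sycp3.

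The second HORMA gene, LOC103395825, which RefSeq names zte38, kept a low level in female gonads. It had 3.42, 7.27 and 2.78 FPKM there, against 235, 235 and 219 FPKM in male gonads (log2 difference -4.90, SE 0.33, edgeR adjusted p = 5.96e-07). Female pools were lower throughout. In the reference assembly LOC103395825 overlaps prdx1, a peroxiredoxin gene with means of 282 FPKM in female gonads and 137 FPKM in male gonads, and without strand information reads of the pair cannot be told apart, so its level is uncertain. SYCP1, the transverse filament of the synaptonemal complex, had transcripts at 0.22, 0.02 and 0.11 FPKM in female gonads, against 103, 84.5 and 140 FPKM in male gonads. Its log2 difference was -8.79 (SE 0.45, edgeR adjusted p = 2.23e-07).

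The genes of SYCP2 and its relative SYCP2L differed in opposite directions. SYCP2 ties SYCP3 to the axis, whereas SYCP2L is known in mouse as a protein of oocytes. The sycp2 transcript was scarce even in male gonads, with 0.01, 0.02 and 0 FPKM in female gonads, against 2.47, 2.16 and 2.86 FPKM in male gonads. Only 2 counts stood behind the 3 female pools and 492 behind the male ones, a male to female ratio of 190 with an exact 95% counting interval of 52.2 to 1570. The synaptonemal complex protein 2-like gene LOC103377325, named sycp2l by RefSeq, had 105, 118 and 107 FPKM in female gonads, against 2.86, 2.48 and 2.69 FPKM in male gonads. Every female pool was above every male pool, and the log2 difference was 6.16 (SE 0.16, edgeR adjusted p = 1.96e-10). In male gonads sycp2 and LOC103377325 stood at like levels and their pools overlapped.

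REC8 is the meiotic cohesin subunit that holds sister chromatids together, and 3 entries carry its name. LOC103388278 had 0.26, 0.21 and 0.52 FPKM in female gonads, against 261.3, 202.5 and 212.4 FPKM in male gonads (log2 difference -8.64, SE 0.29, edgeR adjusted p = 1.27e-09). Its female pools were at the level of those of sycp3 and hormad1. The entry rec8, named rec8b by RefSeq, had no count in any female gonad and 38.3, 21.8 and 19.5 FPKM in male gonads. Set against 3 counts over the female group, its level was at least 190-fold lower in females. LOC103376958 stayed at 0 in all female gonads and at 0.28 FPKM or less in the male ones, and did not pass the filter. It overlaps rec8 in the reference assembly, so reads of rec8 and LOC103376958 may be split between them and both values are uncertain. The pool with the highest rec8 level, male gonad 1, also had the highest level of sycp3, spo11, LOC103388278, msh5, rad51c and LOC103377325. Male gonad 3 was highest for hormad1, sycp1, dmc1, sycp2, LOC103378998 and LOC103376958, and male gonad 2 for LOC103395825, msh4 and leprel4. The summed level of 18 postmeiotic sperm cell genes was 317 FPKM in male gonad 1, against 169 and 171 FPKM in the other male gonads. Whether this sum goes together with the levels above was not tested.

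The break-forming genes remained measurable in female gonads. SPO11, the topoisomerase-like enzyme that cuts the DNA, had transcripts at 8.16, 11.3 and 7.43 FPKM in female gonads, against 314, 244 and 192 FPKM in male gonads. The female pools were lower without overlap, with a log2 difference of -4.02 (SE 0.24, edgeR adjusted p = 8.82e-08). LOC103378998, which codes for a protein like REC114, a partner of SPO11 in break formation, had 5.17, 6.22 and 8.0 FPKM in female gonads, against 48.4, 51.1 and 53.8 FPKM in male gonads. At -2.19 (SE 0.19, edgeR adjusted p = 9.06e-07) it had the second smallest difference of the 13 lower genes. In female gonads the pools of spo11 and LOC103378998 overlapped, while in male gonads spo11 was far above LOC103378998 in FPKM.

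The strand exchange genes divided. DMC1 is the meiosis-specific recombinase, whereas RAD51C serves DNA repair in dividing cells as well as in meiosis. The dmc1 transcript had 0.05, 0 and 0.1 FPKM in female gonads, against 42.8, 40.2 and 50.1 FPKM in male gonads. With 4 female counts against 2546 male ones, its log2 difference was -8.83 (SE 0.36, edgeR adjusted p = 2.48e-09). For rad51c the values were 174, 187 and 148 FPKM in female gonads, against 11.1, 10.9 and 10.6 FPKM in male gonads. The female pools were all higher, and the log2 difference was 4.77 (SE 0.16, edgeR adjusted p = 8.04e-10).

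MSH4 and MSH5 work as a heterodimer on crossover intermediates, and their genes had like levels in male gonads. There msh4 had 35.3 ± 1.22 FPKM and msh5 34.9 ± 1.93 FPKM, with overlapping pools. In female gonads they parted: msh4 had 0.1, 0.04 and 0.04 FPKM, and msh5 had 3.32, 1.91 and 3.54 FPKM. The female minus male log2 difference was -8.22 for msh4 (SE 0.29, edgeR adjusted p = 1.11e-09) and -2.76 for msh5 (SE 0.23, edgeR adjusted p = 5.66e-07). The difference between these differences was not tested. In the reference assembly msh5 overlaps LOC107989425, which has no entry in the table used here, so its level is uncertain too. The genes sycp1, spo11 and sycp2 overlap slc5a8l, bmp7b and phactr3a, which do have entries. These neighbours averaged 0.96, 0.423 and 0.0167 FPKM in female gonads. In male gonads they averaged 0.76, 1.35 and 0.867 FPKM. The part of shared reads in the levels of sycp1, spo11 and sycp2 was not tested.

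The entry leprel4 matched the rule by its product name, synaptonemal complex protein SC65, and RefSeq names it p3h4. In mouse this protein acts with collagen-modifying enzymes of the endoplasmic reticulum. It had 2.15, 1.56 and 2.16 FPKM in female gonads, against 4.72, 7.65 and 6.74 FPKM in male gonads. The groups did not overlap, and the log2 difference of -0.88 (SE 0.28, edgeR adjusted p = 0.0124) was the smallest of the set. Without female gonad 2 it was -0.61 and no longer called (edgeR adjusted p = 0.0710). The overlapping gene LOC103393114 was also lower in female gonads, at 0.04 FPKM on average, against 3.67 FPKM in male gonads, so the gonad difference of leprel4 is uncertain. Female gonad 2 also had a summed level of 10 hepatocyte genes of 2501 FPKM, against 76.7 and 97.5 FPKM in the other female gonads; its part in the values was not tested.

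Outside the gonads most of these transcripts were near 0. Leaving aside male pituitary 3, the highest value in the remaining 17 brain, pituitary and liver libraries was under 1 FPKM for 10 of the 16 genes. The others were rad51c with up to 7.76 FPKM, leprel4 with up to 27.2, LOC103378998 with up to 2.34, sycp3 with up to 1.78, LOC103377325 with up to 1.67 and LOC103395825 with up to 1.23 FPKM. In brain sycp3 had 1.35, 1.18 and 1.78 FPKM in females and 1.63, 1.13 and 1.52 FPKM in males. It was at 0.3 FPKM or less in all livers and in every pituitary except male pituitary 3. The sexes overlapped in brain, and the log2 difference of -0.04 (SE 0.35) was not called (edgeR adjusted p = 0.952).

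RAD51C serves repair in body cells too, and rad51c was found in all libraries. It averaged 6.07 ± 1.11 FPKM in female brains and 5.76 ± 1.08 in male brains, 6.35 ± 1.25 in female pituitaries and 7.24 ± 1.76 in male pituitaries, and 1.04 ± 0.399 in female livers and 0.833 ± 0.240 FPKM in male livers. The sexes overlapped in each of these organs. Neither the brain nor the pituitary difference was called (edgeR adjusted p = 0.946 and 0.545), and in liver rad51c did not pass the filter.

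In brain 4 of the 16 genes were tested and none was called, where 20.3% of all genes tested were (9.36% higher and 10.9% lower in females); at an unadjusted p under 0.05 the count was also 0, and DESeq2 and limma called none either. In pituitary 4 were tested and leprel4 alone was called, lower in females (background 26.7%, with 12.4% higher and 14.3% lower). In liver leprel4 alone was tested, and it was called, higher in females (background 6.82%, with 1.88% higher and 4.94% lower). Of all called genes, 46.2% were higher in females in brain and 27.6% in liver, against 57.0% and 39.0% without scaling. The sexes overlapped for all 4 genes in brain, where 37.6% of all genes tested had groups that did not overlap. For leprel4 they did not overlap in pituitary, like 44.2% of genes tested, or in liver, like 26.5% of them. Both calls of leprel4 ran in opposite directions. In pituitary leprel4 had 8.98, 9.68 and 11.5 FPKM in females, against 27.2, 26.7 and 14.4 FPKM in males (log2 difference -1.21, SE 0.25, edgeR adjusted p = 0.00800). Male pituitary 3 was the lowest of the males, and without it the log2 difference was -1.47. In liver it had 8.89, 7.93 and 5.22 FPKM in females, against 2.56, 2.92 and 2.32 FPKM in males (log2 difference 1.40, SE 0.25, edgeR adjusted p = 0.0105). Female livers lay above male livers throughout, but without male liver 3 the call was lost (log2 difference 1.31, edgeR adjusted p = 0.0579). The sex difference in liver minus that in pituitary, a comparison added after these values were seen and so no independent test of them, was 2.66 on the log2 scale (SE 0.39, edgeR adjusted p = 0.00203; 2.92 without male pituitary 3), where 3.22% of all genes tested were called, 1.51% higher and 1.71% lower. In that comparison leprel4 was the only one of 4 genes called. In the reference assembly leprel4 overlaps LOC103393114, so the level of leprel4 is uncertain where that gene is expressed. Besides the gonads, LOC103393114 was found at 25.4 FPKM in female brains and 24.8 FPKM in male brains. In both sexes of pituitary and liver it averaged under 1 FPKM.

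**Figure D3:**
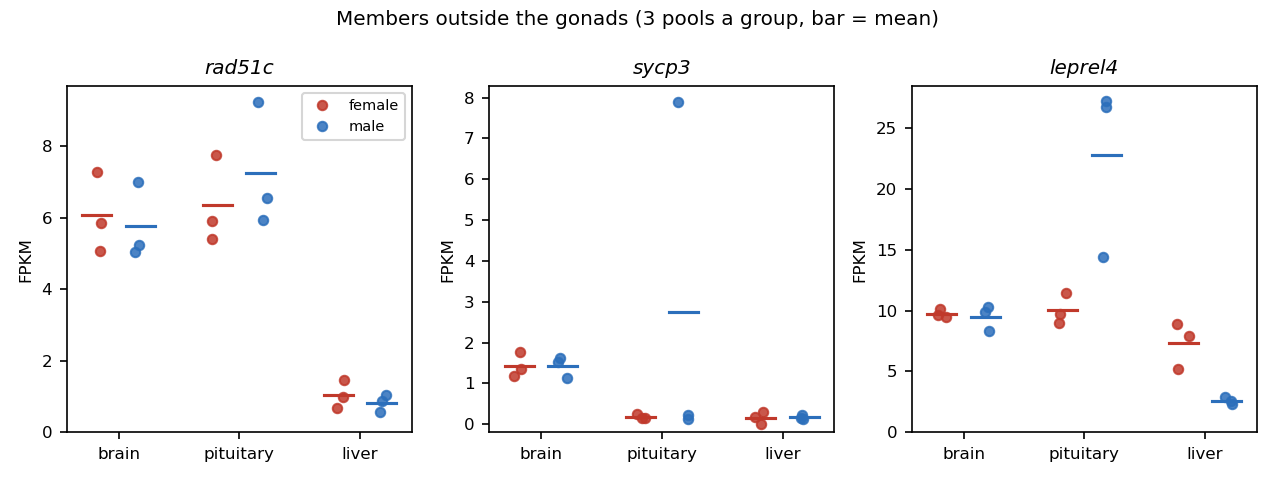
FPKM of rad51c, sycp3 and leprel4 in brain, pituitary and liver, with 1 point per pool and the mean of 3 pools as a bar, females left and males right. Sexes overlap for rad51c, sycp3 is above 1 FPKM in all 6 brains and at 7.89 FPKM in 1 male pituitary, and leprel4 is lower in female than in male pituitaries and higher in female than in male livers.

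Male pituitary 3 held most of the genes that were high in male gonads. It had 7.89 FPKM of sycp3, against 0.13 and 0.22 FPKM in male pituitaries 1 and 2. For hormad1 the values were 6.35 FPKM there and 0.13 and 0.09 FPKM in the others, and for sycp1 they were 3.38 FPKM there and 0.09 and 0.05 FPKM in the others. Of the 11 genes at 20 FPKM or more in male gonads, all were higher in this pool than in the other male pituitaries, at a median of 2.50% of the male gonad mean (range 1.06 to 5.17%). The same median was 0.113% in male pituitary 1 and in male pituitary 2. The ends of the range, 1.06 and 5.17%, belong to rec8 and LOC103378998, and the rest of the 11 lay between 1.92 and 3.09%. For rec8 and LOC103378998 the step was small, since rec8 had 2 counts in both male pituitary 3 and male pituitary 1, and LOC103378998 had 28 in both. The genes that lead in female gonads differed less than most of the 11: rad51c was at 1.48 times and LOC103377325 at 1.51 times the mean of the other male pituitaries.

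A like share was seen in genes outside the set. For description, 24 other genes were at 50 FPKM or more in every male gonad and under 1 FPKM in all libraries other than male gonads and male pituitary 3, which fixes their low level elsewhere. Their median level in male pituitary 3 was 2.44% of the male gonad mean, and 23 of them reached 1 FPKM. The summed Sertoli and testis soma genes were at 5.55 FPKM in male pituitary 3, against 2.05 and 2.25 FPKM in the others, and within them dmrt1, the male-determining gene of this species, was at 1.09 FPKM, against 0.16 and 0 FPKM. The sum of the 18 postmeiotic sperm cell genes was not raised. They summed to 27.02 FPKM in male pituitary 3, against 27.65 and 29.18 FPKM in the others and 169 to 317 FPKM in male gonads. That list is not particular to male gonads, with sums of 28.28 to 30.88 FPKM in female pituitaries and 60.49 to 75.49 FPKM in female gonads. Among all pituitaries its sum was lowest in male pituitary 3. How this sum bears on a share of 2.44% of the male gonad mean was not tested. The oocyte genes summed to 193 FPKM in male pituitary 3, against 47.5 and 80.0 FPKM in the other 2 male pituitaries, but male brain 1 with 174 FPKM and female pituitary 3 with 142 FPKM also had high oocyte sums. The 5 pituitary hormone genes summed to 99119 FPKM in male pituitary 3, against 69832 and 91158 FPKM in the others. The part of other tissue in these values was not tested.

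**Figure D4:**
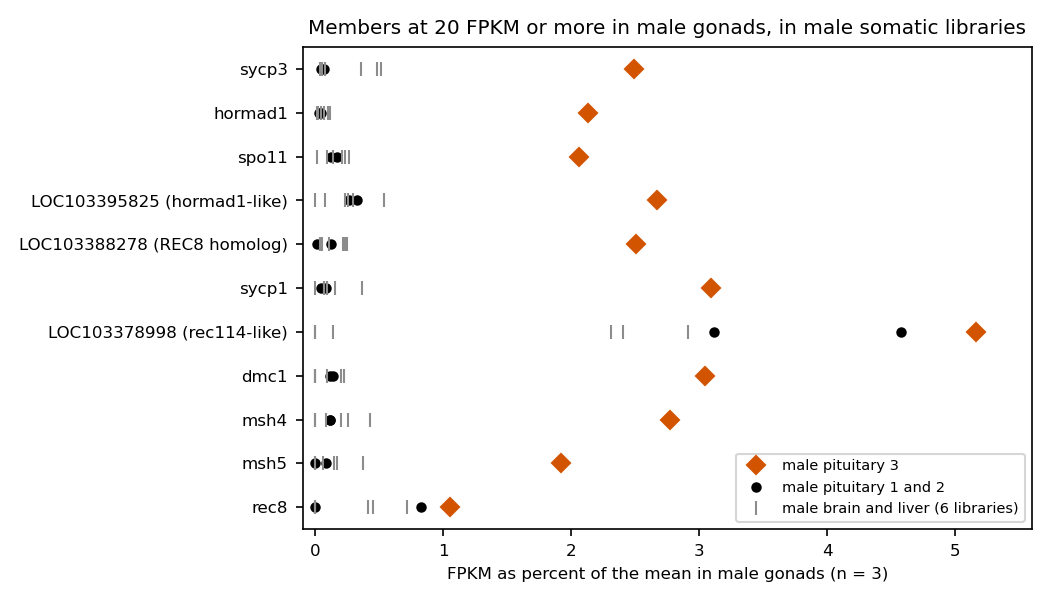
Level of the 11 genes at 20 FPKM or more in male gonads in the 9 male somatic libraries, as a percent of the male gonad mean. Male pituitary 3 lies between 1.06 and 5.17%, to the right of male pituitaries 1 and 2 for every gene. It is only slightly right of male pituitary 1 for rec8 and LOC103378998, which set the ends of that range.

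Set against the other organs of the same sex, male gonads were higher for 14 of 15 genes tested and lower for leprel4. For 9 of the 14 this was largely fixed by the filter on low values: rec8, sycp2, msh4 and msh5 reached 1 FPKM in the male gonads alone, and dmc1, spo11, sycp1, LOC103388278 and hormad1 in the male gonads and male pituitary 3. All 15 were called, where 77.7% of all genes tested were, 41.0% higher and 36.7% lower in male gonads. Of all called genes 52.8% were higher in male gonads, and 77.5% without scaling. The log2 differences of the 14 ran between 0.71 for rad51c and 8.48 for hormad1, and for all 14 the male gonads lay above every other male library, where 40.4% of genes tested had groups that did not overlap. Here leprel4 overlapped. The median of all genes tested was 0.03, and that of the 15 genes, 7.46, is largely set by the same filter. Overlap was judged on FPKM, which carry no TMM scaling, and without scaling the median of all genes was 1.03. The FPKM lead of rad51c was small, with 10.61 FPKM in the lowest male gonad against 9.24 FPKM in male pituitary 3. All 15 were also called without male pituitary 3, where hormad1 was at 9.87 (8.48 with it), msh5 at 9.05 (7.85), sycp1 at 8.998 (7.71), LOC103388278 at 8.79 (7.58), dmc1 at 8.77 (7.80), sycp3 at 8.76 (7.49), msh4 at 8.44 (7.46), spo11 at 8.38 (7.60) and LOC103395825 at 7.79 (7.19). The leprel4 difference of -1.40 was not called without scaling (-0.37, edgeR adjusted p = 0.106) or with limma on log2(FPKM + 1) (-0.39, adjusted p = 0.0507).

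In females 8 genes were tested, 6 were higher in gonads and leprel4 was lower, where 84.8% of all genes were called, 43.1% higher and 41.7% lower. The median of all genes tested was -0.09. The 6 were LOC103377325 (log2 difference 7.45, SE 0.17), msh5 (6.22, SE 0.37), rad51c (5.75, SE 0.13), spo11 (4.93, SE 0.25), LOC103378998 (4.39, SE 0.32) and LOC103395825 (3.998, SE 0.40), each with all gonad pools above all other female pools. In 47.1% of genes tested the groups did not overlap. For spo11, msh5 and LOC103395825 the direction was fixed by the filter, since among female libraries they reached 1 FPKM in the gonads alone. By contrast sycp3, at 0.403 ± 0.150 FPKM in female gonads, was not called against the female somatic organs (log2 difference 0.26, SE 0.50, edgeR adjusted p = 0.650). That contrast averages unlike organs. All female gonads lay under all female brains, which held 1.18 to 1.78 FPKM and alone reached 1 FPKM. Female pituitaries and livers were at 0.3 FPKM or less. The comparisons with other organs, in males and in females, use gonads that also enter the comparison of the sexes.

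Whether the sex difference in gonad differs from that in the other organs was tested over all 24 libraries. Of 15 genes tested 10 were called, where 68.0% of all genes tested were, 33.6% in the positive and 34.4% in the negative direction. Of all called genes 49.4% lay in the positive direction, and 25.97% without scaling. LOC103377325 (5.80, SE 0.50) and rad51c (5.05, SE 0.25) were more female-high in gonad on the log2 scale, and 8 genes were more male-high in gonad, from LOC103388278 at -7.38 (SE 1.41) to spo11 at -2.66 (SE 0.92). Most of the 15 entered this test through the gonads where they are high. Several calls rest on single livers, where counts are near 0. LOC103395825 lost its call without female liver 1 (-2.72, edgeR adjusted p = 0.297) or 3 (-3.27, edgeR adjusted p = 0.0504), and spo11 and sycp1 without female liver 2 (-2.44 and -6.18, edgeR adjusted p = 0.0898 and 0.0968). The 5 not called were msh5, LOC103378998, leprel4, dmc1 and rec8. For leprel4 (-0.64, edgeR adjusted p = 0.0591) all 8 alternatives that kept every library gave a call in the same direction. The tests of dmc1 and rec8 were void, since groups without a count left the fit no usable error, and DESeq2 called both lower (-7.53 and -8.03). The test of msh4 without female liver 3 (-5.32) was void in the same way, since the remaining female livers held no msh4 count. Without male pituitary 3 msh5 was called at -2.80 (edgeR adjusted p = 0.0366), against -1.61 with it. In the same fit the log2 difference was -8.60 for LOC103388278, -8.52 for sycp3, -8.11 for hormad1, -7.80 for msh4, -7.79 for sycp1, -3.80 for LOC103395825 and -3.44 for spo11, against -7.38, -7.24, -6.72, -6.83, -6.51, -3.19 and -2.66 with it.

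Counts of other meiosis genes stand beside the shares over all genes tested between gonads, 38.8% higher and 45.4% lower in females, and the median of -0.24. Genes too low for the filter among female libraries entered through the male gonads, which largely fixed their direction as lower. Among female libraries 4 of 6 other synaptonemal complex and axis genes and 4 of 5 break formation genes passed the filter. Of 6 other synaptonemal complex and axis genes tested, all 6 were lower in female than in male gonads, with a median log2 difference of -3.11, among them the central element genes syce1 (log2 difference -7.46, SE 0.46), syce2 (-4.35, SE 0.24) and syce3 (-3.17, SE 0.24), and an entry named testis-expressed sequence 12 (-3.05, SE 0.44), a central element protein in mouse. Of 6 cohesin genes 4 were lower and 1 higher, with a median of -2.26. The lower ones included smc3 (-3.72, SE 0.16), the rad21 homolog LOC103385399, named rad21l1 by RefSeq (-3.69, SE 0.20), and the meiotic subunit gene stag3 (-3.67, SE 0.16), while another rad21 homolog, LOC103388613, was higher (1.23, SE 0.13). Of 5 break formation genes 2 were higher and 1 lower, with a median of -0.26. The higher ones were the PRDM9-named entries LOC103384230 (1.56, SE 0.23) and LOC103384268 (1.44, SE 0.18). The lower one, entered as mei1 (-8.29, SE 0.42), is named ccdc134 by RefSeq, so its identity is uncertain.

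Strand exchange and crossover genes were found in both directions, with counts near the shares of 38.8% higher and 45.4% lower over all genes. Of 18 strand exchange genes tested 8 were higher and 7 lower in female gonads, with a median log2 difference of 0.11. Like rad51c, the DNA repair gene rad51d (3.63, SE 0.26) and rpa2, for a subunit of the single-strand binding protein (1.94, SE 0.14), were higher, whereas spata22, needed for meiosis in mouse (-8.05, SE 0.32), was lower. Of 16 crossover genes 7 were higher and 7 lower, with a median of 0.09. The exonuclease gene exo1 was higher (3.23, SE 0.16), and the meiotic helicase gene hfm1 (-9.21, SE 0.30), tex11 (-3.66, SE 0.39) and rnf212 (-3.02, SE 0.24) were lower. Without scaling the counts were 5 higher and 10 lower for strand exchange, 5 higher and 9 lower for crossover, and 3 lower for break formation. Among female libraries 17 of 19 strand exchange genes and 14 of 16 crossover genes passed the filter, so the limit given above holds here too.

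Of 10 meiotic entry and germ cell genes 2 were higher and 7 lower in female gonads, with a median of -1.93, where 38.8% of all genes tested were higher and 45.4% lower. The RNA helicase gene ythdc2, needed for meiotic entry in mouse, was lower (-5.93, SE 0.21), as were dazl (-4.09, SE 0.22) and the piRNA pathway gene tdrd9 (-2.81, SE 0.18). A nanos homolog 1-like gene, LOC103383947, was higher (7.26, SE 0.19). Against the other organs of their own sex, female gonads were higher for 14 of 14 crossover genes and 16 of 17 strand exchange genes tested, and male gonads for 16 of 16 and 16 of 18, where 43.1% of all genes tested were higher in female gonads and 41.0% in male gonads. Some of these crossover and strand exchange genes, among them exo1, hfm1, tex11, rnf212 and spata22, were too low to be tested between the sexes in brain, pituitary or liver. Such genes passed the filter mainly through the gonads, which largely fixed their direction, so these counts say little about them. Of the 6 cohesin genes 3 were higher and 3 lower in female gonads, and 4 were higher and 2 lower in male gonads. Without scaling 5 cohesin genes were higher in male gonads and none was lower.

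**Figure D5:**
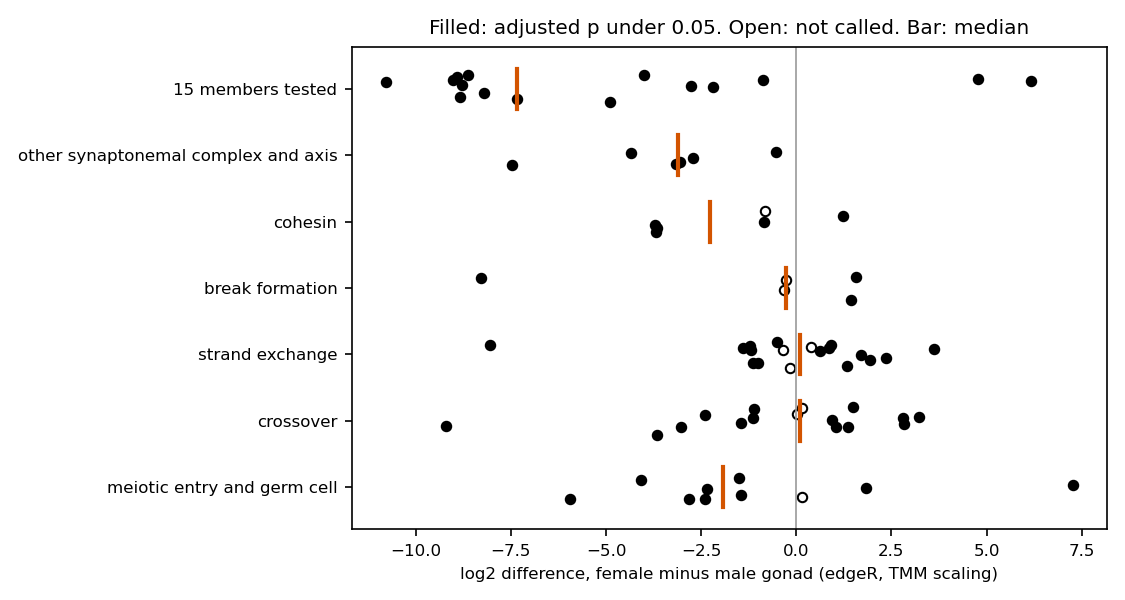
Log2 difference, female minus male gonad, for the 15 genes tested and for 6 lists of other meiosis genes, with filled points called at an adjusted p under 0.05, open points not called and the median as a bar. The bars lie at -7.35 for the meiotic axis and recombination genes described here and at -3.11 for other axis genes, and near 0 for strand exchange and crossover genes. The filter on low values largely sets the bar at -7.35 and the side of genes found in male gonads alone. The leftmost point, rec8, has no count in females and its place depends on the fit.

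The genes whose levels ran most alike were named by the highest Pearson correlation of log2(FPKM + 1) over the 24 libraries, among genes with a product name at 5 FPKM or more in at least 3 libraries. For hormad1 they were LOC103379931 (an SMC1B-like cohesin gene), rbm46, rnf212b, c17h17orf104 and tex14, with r between 0.998 and 0.999. For sycp3 they were LOC103383140, LOC103376849, LOC103382736, hsf2bp and LOC103396423, with r between 0.987 and 0.993. For rad51c they were LOC103391990, xxylt1, commd9, LOC103385773 and pex13, with r between 0.989 and 0.994. LOC103379931 had 0.51 FPKM on average in female gonads and 229 FPKM in male gonads, and LOC103391990, a cytochrome c oxidase copper chaperone gene, had 2807 FPKM in female gonads and 72.1 FPKM in male gonads. These values describe libraries that fall into 8 groups, and libraries of a group share their organ and sex, so no p is given. Within the set, hormad1 and sycp1 had r = 0.998, rad51c and LOC103377325 had r = 0.96, and hormad1 and rad51c had r = 0.133.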

How the data were processed

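RNA-seq of pooled tissue was analysed from 1 deposited table with 22773 entries and 24 libraries. Per the file headers, the authors deposited estimated counts and FPKM for each library; the submitters' processing notes name TopHat2 2.0.3.12 and Bowtie2. The genome build, the annotation and the counting tool are not given in the sources used here. Between 97.1 and 98.4% of the deposited counts per library were whole, and all were rounded. Tests used edgeR 4.0.16 in R 4.3.3 (TMM, robust quasi-likelihood fit), on genes that reached 1 FPKM in 3 or more libraries compared, with Benjamini-Hochberg adjustment over all genes tested. Standard errors are the log2 difference divided by the root of the F statistic. The fits were also run on simulated counts with a fixed spread and few, smaller changes. That setting lacks the many large differences seen between gonads, so it cannot speak for that comparison.

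Alternatives were median-ratio scaling, no scaling, no filter, a filter at 5 FPKM, DESeq2 1.42.0, limma 3.58.1 on log2(FPKM + 1) and log2(FPKM + 0.1), a replicate block, all libraries in one fit, and leaving out each library. The libraries left out were run on the genes of the full comparison, a choice made after counts were seen, and again with the filter applied anew. P-values reflect the spread between pools of 5 fish. Counting intervals and floors of 3 counts cover counting error only.

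The genes and lists were chosen with earlier results of these data known, and list patterns were tightened after the matched names were read. Every gene of the rule is named. From each list up to 4 called genes with the largest difference and no overlap are named (1 gene that this would name is not reported here), and for sycp3, hormad1 and rad51c the 5 genes of most like pattern. Of 20373 NCBI gene identifiers, 19502 were found in the RefSeq gene table of assembly Cse_v1.0, all 16 genes among them; it served only for names and neighbours.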

Additional observations from a re-analysis of the deposited data

Results flagged for a closer look

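The sex difference in gonad differed from that in the other organs by a direct test for 10 of 15 genes tested, all on the log2 scale and from edgeR over the 24 libraries. Over all genes tested 68.0% were called, 33.6% in the positive and 34.4% in the negative direction, so the count says little. The difference was 5.80 for LOC103377325 and 5.05 for rad51c, toward females. Toward males it was -7.38 for LOC103388278, -7.24 for sycp3, -6.83 for msh4, -6.72 for hormad1, -6.60 for sycp2, -6.51 for sycp1, -3.19 for LOC103395825 and -2.66 for spo11. The calls of LOC103395825, spo11 and sycp1 were lost when a single female liver was left out, and without female liver 3 the test of msh4 was void. The sex difference in liver and that in pituitary differed for leprel4, by 2.66; that comparison was added after the opposite signs in both organs were seen, so it restates them and is no independent test.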

How the results depend on the processing

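No called value changed sign under any alternative run. Values that were not called did: sycp3, rad51c and leprel4 in brain crossed 0, sycp3 between female gonads and female somatic organs ran between -0.09 and 0.56, and for liver against pituitary LOC103377325 ran between -0.10 and 1.58 and LOC103378998 between -2.15 and 3.33. In brain 3318 genes were called, against 1122 when the 24 libraries shared a fit. In liver 721 were called, against 318 with a minimum of 5 FPKM and 1715 when the 24 libraries shared a fit. The liver and pituitary sex differences differed for 515 genes, against 1046 with DESeq2 and 1491 with limma on log2(FPKM + 1). Leaving out each library, on the genes of the full comparison, gave 2250 to 3153 genes in brain, 2661 to 4376 in pituitary, 344 to 744 in liver and 289 to 629 for liver against pituitary. With the filter applied anew, the lowest counts were 1940 in brain (2090 without female brain 1), 2403 in pituitary (2544 and 2715 without female pituitary 1 or 3), 198 in liver (199, 474 and 303 without female liver 3, male liver 1 or male liver 3) and 287 for liver against pituitary (289, 319, 294 and 316 without female pituitary 1, female liver 2, male pituitary 1 or male pituitary 2; highest 631). Of the axis and recombination genes 14 to 15 were called between gonads and 0 to 1 in liver. With the filter applied anew 7 were called when any male gonad was left out, and 4 instead of 7 between female gonads and female somatic organs when any female gonad was, since a gene found in 1 group then misses the minimum of 3 libraries. In liver the call of leprel4 was then also lost without female liver 2 (1.39, edgeR adjusted p = 0.0535), and between gonads without female gonad 3 (-0.74, edgeR adjusted p = 0.0710).

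In the gonad interaction LOC103378998 was called without scaling (-2.62), with DESeq2 (-1.55) and with limma, and msh5 with limma. LOC103378998 was also called without male liver 3 (-2.51, edgeR adjusted p = 0.0304), the only male liver with a count of it. The cause was not tested. Same-numbered gonads had correlations of -0.17 to -0.04, and in no comparison of the sexes did every pair exceed 0.1, so the numbers are not read as pairs there. Female pituitary and female brain correlated at 0.12 to 0.20 in all 3 pairs, but of the 18 pairs among female organs 6 exceeded 0.1. With the block 15410 genes and 7 of the axis and recombination genes were called between female gonads and female somatic organs, and 13187 and 11 in the gonad interaction, against 15421 and 7, and 13260 and 10, without it. With the replicate block 13407 genes were called between gonads, 15 of the axis and recombination genes among them, and leprel4 was called in the gonad interaction (-0.66, edgeR adjusted p = 0.0475). Depth limits genes with few counts, such as sycp2, rec8 and dmc1 in female gonads.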
